A study of Populus yunnanensis and Populus davidiana with 24 samples.

Results

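A group of 28 genes had a transient peak at 48 h in stem cuttings of Populus yunnanensis, a poplar: their transcript level was higher at 48 h than at 0 h and was back near the 0 h level at 120 h. They were found among 43836 gene identifiers and were selected on the measured values themselves. On the log2(FPKM + 1) scale, the mean of a member at 48 h was at least 1 above the mean at 0 h and the mean at 120 h. All 3 libraries of 48 h lay above all 3 of 0 h and all 3 of 120 h, and the 120 h mean lay within 1 of the 0 h mean. FPKM is the number of sequenced fragments scaled to gene length and to the total mapped in the library. Because the rule used the 0, 48 and 120 h libraries of P. yunnanensis, their values are given as a description without a test, and tests are given only for the P. davidiana libraries and for the species difference at 96 h.

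RNA of the stems was sequenced in 24 libraries, from cuttings of P. yunnanensis and of Populus davidiana, an aspen. The cuttings were taken from year-old branches stripped of buds and leaves. In each species the groups were cuttings labelled 0, 48, 96 and 120 h, with 3 replicates per group, and every group had the treatment label cutting. The series title names rooting differences between poplars, and no label says that replicates were separate plants, so the p-values refer to the spread among libraries, which may be technical.

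Cutting a stem wounds it and separates it from leaves and roots. In cuttings of woody plants, wound responses with jasmonate and ethylene signalling come early, and cells near the vascular cambium can later divide and form adventitious roots under the control of auxin. Poplars differ widely in how readily stem cuttings root, and aspens are known as hard to root from stem cuttings. The deposited table gives identifiers without names, so no function is assigned to any of the 28 genes, and lists of wound, hormone, cell cycle and tissue marker genes were not matched. The tissue label could therefore not be checked against marker genes. In bulk stem RNA, a smaller share of a cell type and less RNA per cell cannot be told apart.

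Peaks of this shape were a small share of the early increases. In P. yunnanensis, 2060 genes were higher by at least 1 at 48 h than at 0 h, and in 1438 of them the libraries did not overlap. Of these 1438 genes, 1218 (84.7%) were still at least 1 above 0 h at 120 h, and 59 had a 48 h mean at least 1 above that of 120 h. In 41 of the 59 the 48 h libraries also lay above all 120 h libraries, and 28 of the 41 had a 120 h mean within 1 of that at 0 h, 1.95% of the 1438. The mirrored rule, a dip at 48 h of the same depth and separation, was met by 65 genes. Without a minimum height, 225 genes were higher at 48 h than on both sides without overlap and came back within 1, of which 87 were 0.5 to 1 high.

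The 28 genes ranged from barely detected to among the abundant transcripts, and most peaks were low. Peak height, the distance on the log2(FPKM + 1) scale from 48 h to the higher of 0 h and 120 h, ran from 1.02 to 3.05 with a median of 1.21, and 7 genes had a height of 1.5 or more. The mean level at 48 h ran from 1.17 to 1687 FPKM with a median of 26.7. It was 100 FPKM or more in 9 genes, 5 or more in 21 and below 5 in 7. The median log2 difference of the members from 0 to 48 h was 1.51, against 0.10 over the 24643 genes with 1 FPKM or more in 3 libraries. From 0 to 120 h it was 0.21, below the 0.34 of all these genes.

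**Figure D1:**
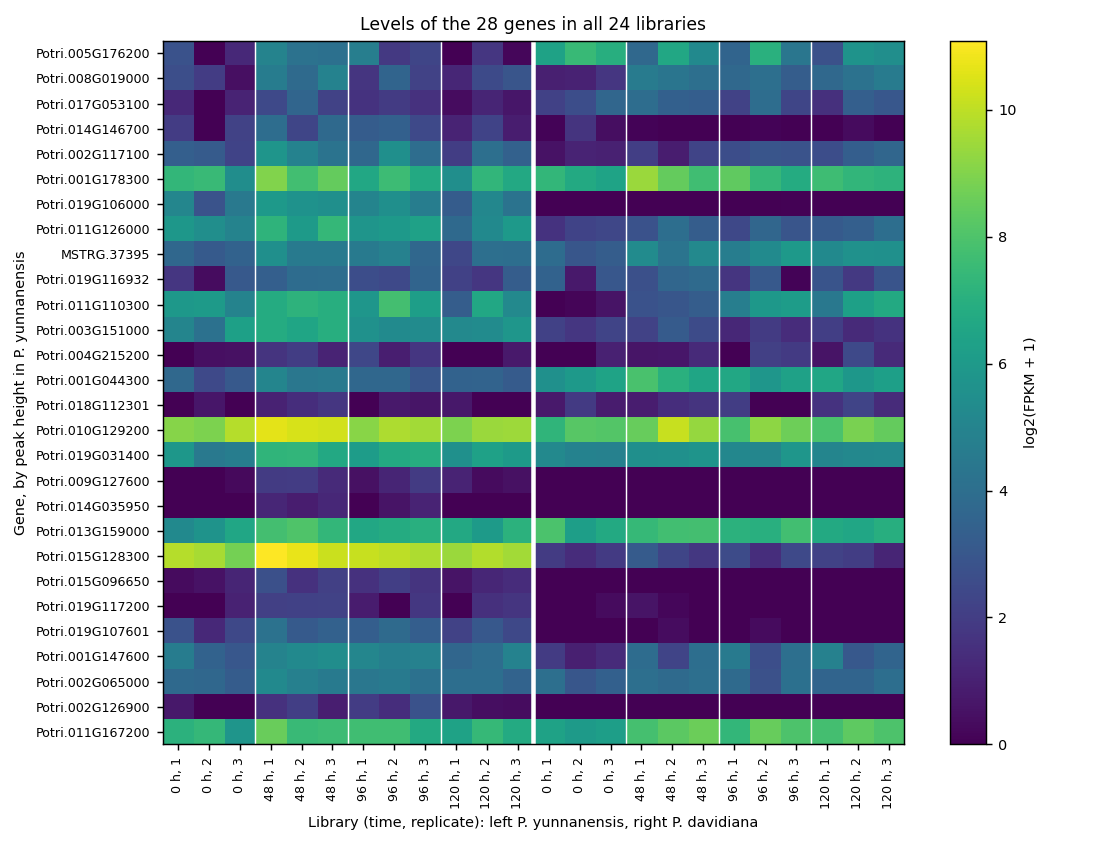
Level of each of the 28 genes, as log2(FPKM + 1) by colour, in each of the 24 libraries, with genes ordered from the highest to the lowest peak and P. yunnanensis on the left. The 3 columns of 48 h in P. yunnanensis are the brightest of the 0, 48 and 120 h columns in each row, and several rows are dark throughout P. davidiana.

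The 2 genes with the highest peaks and at least 5 FPKM at 48 h were Potri.005G176200 and Potri.008G019000. Potri.005G176200 was at 5.98, 0 and 1.44 FPKM at 0 h, at 30.6, 17 and 16.2 at 48 h, at 26.1, 2.62 and 4.01 at 96 h, and at 0, 2.42 and 0.144 at 120 h. All 48 h libraries stood well above those of 0 and 120 h, while 1 library of 96 h was still at the level of 48 h. Its 48 h mean of 21.2 ± 8.07 FPKM (SD, n = 3) compared with 2.47 ± 3.12 at 0 h and 0.853 ± 1.36 at 120 h. Potri.008G019000 was at 5.29, 2.89 and 0.369 FPKM at 0 h, at 24, 13.1 and 29.3 at 48 h, at 2.30, 10.8 and 3.56 at 96 h, and at 1.31, 4.68 and 6.58 at 120 h. Here every 96 h library was already below every 48 h library.

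The 2 most abundant members at 48 h were Potri.015G128300 and Potri.010G129200. Potri.015G128300 was at 933, 786 and 432 FPKM at 0 h, at 2179, 1687 and 1194 at 48 h, at 1159, 1003 and 845 at 96 h, and at 679, 911 and 747 at 120 h. The 48 h libraries of this gene spanned a wide range, and all of them lay above all others. Potri.010G129200 was at 535, 472 and 924 FPKM at 0 h, at 1568, 1351 and 1281 at 48 h, at 562, 837 and 749 at 96 h, and at 473, 682 and 705 at 120 h. Its 48 h libraries were close together and its 96 h libraries lay within the range of the flanking times.

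At the other end, Potri.014G035950, named here after its values were seen, was listed at 0 in every library of 0 h and 120 h and reached 1.27, 0.870 and 1.37 FPKM at 48 h, so its peak consists of low values. In 8 members the 0 h mean was under 1 FPKM. At the edge of the rule, the 2 members with the lowest peaks were Potri.011G167200, with a height of 1.02 and means of 120, 249, 173 and 121 FPKM at 0, 48, 96 and 120 h, and Potri.002G126900, with a height of 1.03 and means of 0.222, 2.04, 3.55 and 0.426 FPKM. Just outside were Potri.010G207600, with a height of 0.996 and means of 1.5, 5.08, 5.29 and 2.34 FPKM, and Potri.012G059500, with a height of 0.969 and means of 24, 49.5, 44.3 and 26.2 FPKM. The genes on both sides of the threshold thus had similar courses.

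The 96 h libraries of P. yunnanensis took no part in the selection, although each comparison with them shares a group that did. At 96 h most members lay between the flanks and the peak. With the mean of the 0 and 120 h levels set to 0% and the 48 h level to 100%, the position at 96 h had a median of 54.2% and ran from 7.10% to 147%. It was 50% or more in 16 members and under 25% in 7. The 96 h mean was above both flanks in 26 members and below the 48 h mean in 26. Over the 24643 genes, it was above the 120 h mean in 44.9% and above the 48 h mean in 73.4%. Selection for high 48 h and low flank values by itself favours a 96 h level between them, so these counts are a description only. The median log2 difference from 0 to 96 h was 0.93 in the members and 0.33 over the 24643 genes, and it was positive in all 28 members and in 68.6% of these genes. From 48 to 96 h the members had a median of -0.62 and all genes one of 0.22.

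**Figure D2:**
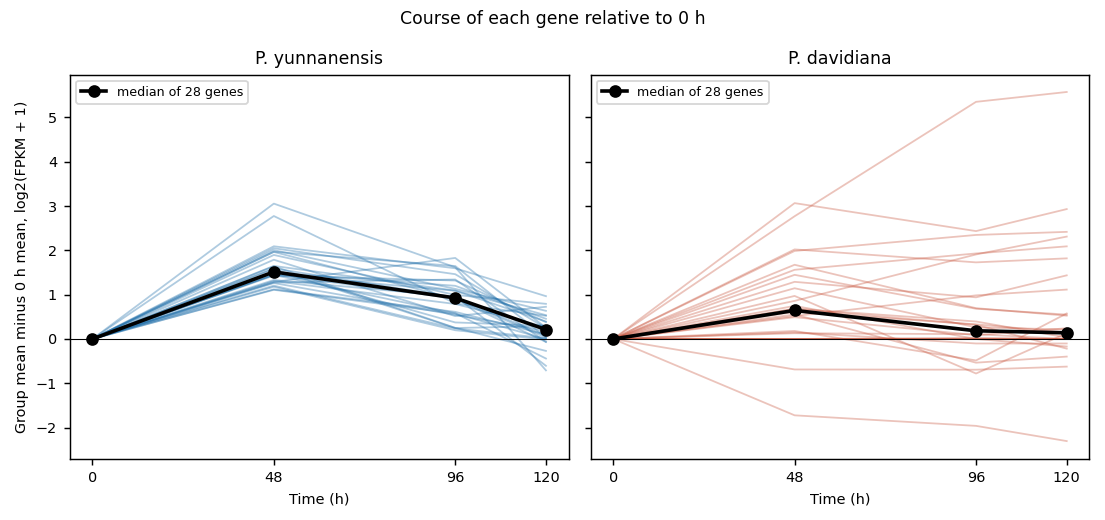
Group mean of each gene minus its 0 h mean on the log2(FPKM + 1) scale (vertical) against time in hours (horizontal), 1 line per gene, with the median of the 28 genes in black. In P. yunnanensis the median goes through 1.51 at 48 h, 0.93 at 96 h and 0.21 at 120 h, and in P. davidiana, where 4 genes were listed at 0 throughout, through 0.64, 0.19 and 0.14.

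The position at 96 h had a wide spread among the members, and differences between members were not tested. Among members with at least 5 FPKM at 48 h, Potri.003G151000 had the lowest position at 96 h. It was at 32.5, 16.7 and 77.5 FPKM at 0 h, at 112, 89.5 and 122 at 48 h, at 47.6, 38.1 and 40.1 at 96 h, and at 36.0, 39.6 and 55.8 at 120 h. Its 96 h libraries were within the range of the flanks. Potri.001G044300 came next at 16.1%, with 31.7, 19.8 and 21.1 FPKM at 48 h and 12.1, 12.1 and 6.84 at 96 h. The highest positions were those of Potri.019G107601 at 91.0% and Potri.014G146700 at 83.4%. Potri.019G107601 was at 17.3, 7.93 and 9.96 FPKM at 48 h, at 8.97, 13.2 and 9.04 at 96 h, and at 3.59, 7.33 and 4.27 at 120 h. Its 96 h libraries lay within the range of its 48 h libraries. The 2 members whose 96 h mean was above that of 48 h, named here after their values were seen, were Potri.002G126900 and Potri.004G215200, both with means under 5 FPKM at 48 h.

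Which genes met the rule depended on single libraries. The 120 h replicate 1 library had the lowest of the 3 values in 18 of the 28 members, with a median deviation from each member's species mean of -0.82, against -0.20 and -0.42 in replicates 2 and 3. Over all genes tested this library deviated by 0.22. At 0 h, replicate 2 had the lowest value in 11 members, with a median deviation of -0.92, and 20 genes held 23.0% of the FPKM of that library, the highest such share in the species. The 48 h libraries deviated by 1.12, 0.83 and 0.73 in the members and by -0.25, 0.0065 and -0.052 over all genes. Replicate 1 held the highest 48 h value in 13 members, replicate 2 in 7 and replicate 3 in 8. With 1 of the 9 libraries left out at a time, 26 to 71 genes met the rule, with 26 after leaving out 120 h replicate 1 and 71 after leaving out 48 h replicate 3. Fewer libraries in a group make the no-overlap condition easier to meet, so higher counts are in part built in. Of the 28 genes, 19 to 27 still met the rule each time. With the 9 libraries left out in turn, 9 of the 28 genes met it every time. Under median ratio scaling, quantile normalization and rescaling to TPM, 19 met it under all 3.

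**Figure D3:**
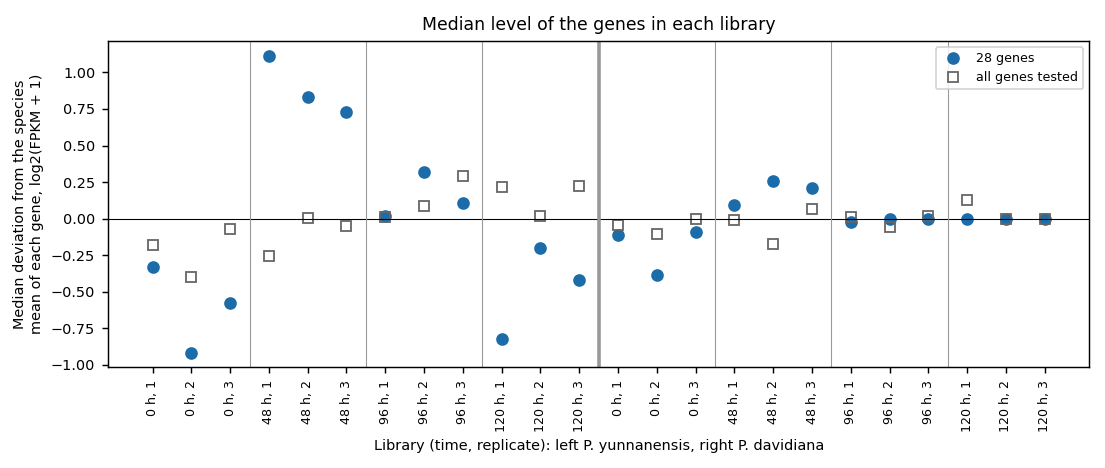
Median deviation of the 28 genes (filled circles) and of all genes tested (open squares) from their species mean, on the log2(FPKM + 1) scale, in each of the 24 libraries. The members stand at 1.12, 0.83 and 0.73 in the 48 h libraries of P. yunnanensis, and at -0.82 in its 120 h replicate 1 library; in P. davidiana they stay between -0.39 and 0.26.

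The P. davidiana libraries took no part in the selection. Of the 28 genes, 4 were listed at 0 in all 12 of these libraries (2.83% of the 24643 genes) and 7 were under 1 FPKM in all 12 (10.8%). With at least 1 FPKM in 3 or more P. davidiana libraries, 20 of the 28 were tested, along with 20674 genes in all, using limma on 12 libraries with Benjamini-Hochberg adjustment over all genes. These 20 do not stand for all members, since the genes near 0 in this species are not among them. Whether fragments of this species were assigned to the identifiers as completely as those of P. yunnanensis was not tested. No member passed this filter through 1 group alone.

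At 48 h in P. davidiana 5 of the 20 tested members were higher than at 0 h at an adjusted p under 0.05 and 0 were lower, while 3.51% of all genes tested were higher and 3.2% lower. The number at an unadjusted p under 0.05 was 11, and the share of all genes at that level was not determined. The difference was positive in 19 of the 20, with a median of 0.92 on the log2(FPKM + 1) scale, against 0.042 over all genes, of which 53.4% were positive. In 10 of the 20 all 48 h libraries lay above all 0 h libraries, and this held for 12.4% of all genes tested. Same-numbered replicates of these groups deviated together, and with the replicate number as a block 10 members were called, 9 higher and 1 lower, against 6.38% and 5.58% of all genes. The 1 lower gene under the block was Potri.005G176200, the highest peak of P. yunnanensis.

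Potri.008G019000 had the largest change of the 5. In P. davidiana it was at 0.983, 1.06 and 2.34 FPKM at 0 h, at 23.3, 18.8 and 15.6 at 48 h, at 12.6, 15.5 and 8.55 at 96 h, and at 12.5, 17.3 and 23.5 at 120 h. The libraries of every later time lay above those of 0 h, and those of 120 h overlapped those of 48 h. The rise to 48 h was 3.07 (SE 0.30, limma adjusted p = 0.000331), and that to 120 h was 2.93 (SE 0.30, adjusted p = 8.57e-05). So this gene, back near its 0 h level at 120 h in P. yunnanensis, was still high at that time in P. davidiana; the difference between these courses was not tested.

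Potri.011G110300 was the member with the next largest rise. It was at 0, 0.111 and 0.490 FPKM at 0 h in P. davidiana, at 6.01, 6.80 and 8.61 at 48 h, at 25.5, 59.3 and 69.4 at 96 h, and at 20.8, 77.0 and 104 at 120 h. Its level was near 0 at first and was higher still after 48 h, with no overlap between 48 h and either later time. The log2 differences from 0 h were 2.77 at 48 h (limma adjusted p = 0.00917), 5.35 at 96 h (adjusted p = 7.89e-05) and 5.57 at 120 h (adjusted p = 4.14e-05), each with an SE of 0.51. In P. yunnanensis the same gene was at 60.1, 64.5 and 30.6 FPKM at 0 h, at 114, 142 and 122 at 48 h, at 55.4, 221 and 72.8 at 96 h, and at 8.51, 101 and 36.1 at 120 h. There it was well expressed from the start.

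The other members called at 48 h, named because the count was small, were Potri.011G167200, MSTRG.37395 and Potri.001G178300. Potri.011G167200 was at 81.6, 65.8 and 74.0 FPKM at 0 h in P. davidiana and at 222, 317 and 390 at 48 h, a log2 rise of 2.02 (SE 0.28, limma adjusted p = 0.00257). Its libraries were at 164, 360 and 252 FPKM at 96 h and at 221, 323 and 252 at 120 h. Of these, the 164 FPKM lay below the range of 48 h, the 221 FPKM just below it, and the rest within it. In P. yunnanensis this gene met the rule under 0 of the 3 scalings and with 5 of the 9 libraries left out in turn. MSTRG.37395, an assembled locus without a reference identifier, was at 14.0, 6.81 and 8.75 FPKM at 0 h and at 40.3, 18.0 and 36.5 at 48 h, a log2 rise of 1.56 (SE 0.36, limma adjusted p = 0.0264). This call ended under 6 of 15 alternative settings, with adjusted p from 0.0167 to 0.0976. Leaving out a single library ended it in 4 cases, namely 0 h replicate 2 (adjusted p = 0.0930), 0 h replicate 3 (0.0718), 48 h replicate 1 (0.0645) and 48 h replicate 3 (0.0976).

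Potri.001G178300 was the only gene that met the same selection rule in both species. The rule applied to P. davidiana gave 50 genes, 0.114% of all identifiers, so that the shared gene was 3.57% of the 28 and 2% of the 50. It was at 160, 180 and 42.1 FPKM at 0 h in P. yunnanensis, at 502, 214 and 351 at 48 h, at 101, 195 and 105 at 96 h, and at 43.6, 156 and 101 at 120 h. In P. davidiana it was at 162, 107 and 85.1 FPKM at 0 h, at 679, 349 and 206 at 48 h, at 333, 167 and 113 at 96 h, and at 198, 157 and 142 at 120 h. In both species the 48 h libraries were above those of 0 h and 120 h without overlap, and the libraries of the species overlapped each other at every time. In P. davidiana the log2 rise from 0 to 48 h was 1.67 (SE 0.44, limma adjusted p = 0.0421), and 48 h exceeded 120 h by 1.15 (SE 0.44, adjusted p = 0.119), which did not pass. The first call ended under 10 of 15 alternatives, with adjusted p from 0.00142 to 0.126. Among them were the fits without 0 h replicate 2 (adjusted p = 0.114), 0 h replicate 3 (0.126), 48 h replicate 1 (0.0991) or 48 h replicate 2 (0.0887). With the block the limma adjusted p was 0.00142 for 48 h against 0 h and 0.00779 for 48 h against 120 h. Replicate numbers paired the libraries of 48 h and 120 h only in part: 2 of 3 correlated best with their own number. The gene is singled out because these same P. davidiana libraries met the rule, so its p-values are no independent support.

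**Figure D4:**
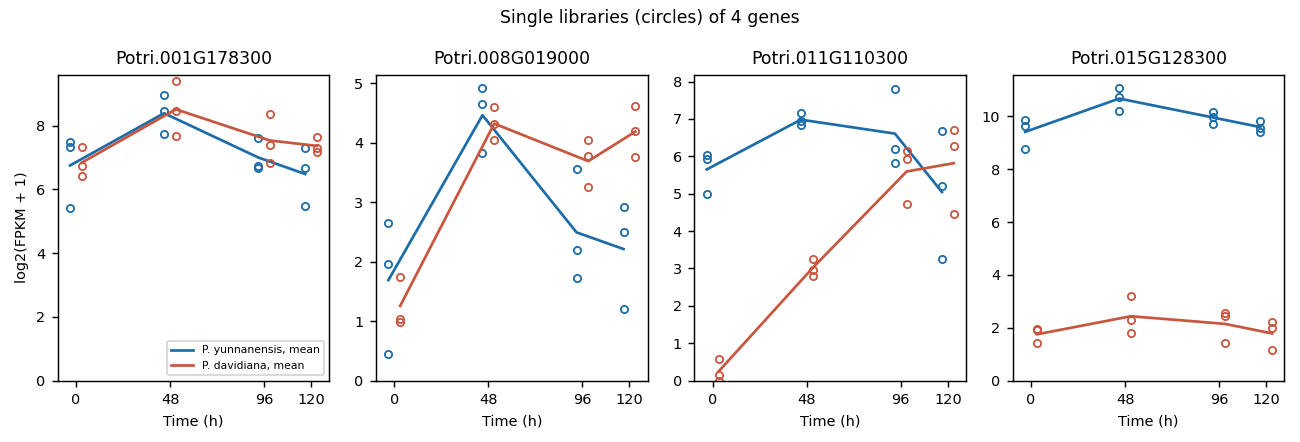
Level as log2(FPKM + 1) (vertical) against time in hours (horizontal) of 4 of the genes, with circles for single libraries and lines for group means, P. yunnanensis in blue and P. davidiana in red. The courses of Potri.001G178300 lie close together, Potri.008G019000 stays high after 48 h in P. davidiana, Potri.011G110300 reaches 5.57 above 0 h there at 120 h, and Potri.015G128300 is lower in P. davidiana in every library.

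Some members that stood out in P. yunnanensis had no called change at 48 h in P. davidiana without the block. Potri.005G176200, which had the highest peak, was at 83.1, 177 and 123 FPKM at 0 h in P. davidiana, at 12.5, 100 and 36.9 at 48 h, at 10.8, 130 and 19.5 at 96 h, and at 5.64, 51.5 and 43.4 at 120 h. Replicate 2 was the highest at every time, and without a block the log2 difference from 0 to 48 h of -1.72 did not pass (SE 0.97, limma adjusted p = 0.326), whereas with the block its adjusted p was 0.0378. Potri.010G129200, one of the 2 most abundant members, was at 154, 296 and 282 FPKM at 0 h, at 364, 1132 and 638 at 48 h, at 229, 592 and 394 at 96 h, and at 245, 469 and 352 at 120 h. Its 48 h libraries lay above those of 0 h. The log2 difference from 0 to 48 h was 1.45 (SE 0.45, limma adjusted p = 0.0747), and 0.00123 with the block.

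No member passed the test for the second flank of the peak in P. davidiana. For 48 h against 120 h, 0 of the 20 members were higher at 48 h and 2 were lower in limma, while 2.84% of all genes were higher and 6.84% lower. At an unadjusted p under 0.05 there were 7, and by the replicate block fit 4, of which 2 were higher. The block fit also called more of all genes in both directions than these shares, which are without the block. The difference was positive in 13 and negative in 7, with a median of 0.36 in the members and -0.097 over all genes. All 48 h libraries lay above all 120 h libraries in 4 of the 20, against 12.1% of all genes. The 2 lower genes were Potri.011G110300, with a difference of -2.80 (SE 0.51, limma adjusted p = 0.00841), and Potri.002G117100. The latter was at 0.435, 1.17 and 1.03 FPKM at 0 h, at 3.23, 0.855 and 3.83 at 48 h, and at 5.19, 8.81 and 11.7 at 120 h. Its highest levels were thus at 120 h, with a difference of -1.45 (SE 0.38, limma adjusted p = 0.0343). That call ended under 7 of 15 alternatives, with adjusted p from 0.0221 to 0.131, among them the fits without 48 h replicate 2 (adjusted p = 0.127), 120 h replicate 2 (0.0950) or 120 h replicate 3 (0.131).

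**Figure D5:**
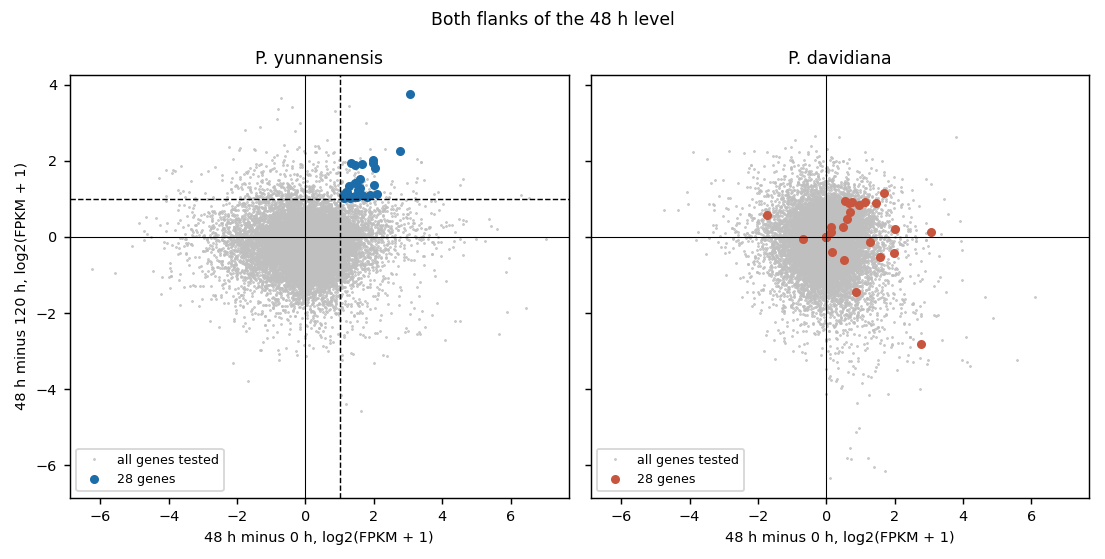
Difference of 48 h from 120 h (vertical) against difference of 48 h from 0 h (horizontal), both on the log2(FPKM + 1) scale, for all genes tested in grey and the 28 genes in colour. The members fill the upper right corner in P. yunnanensis because the rule, with its limits of 1 drawn as dashed lines, put them there; in P. davidiana they lie mostly right of 0 and on both sides of 0 vertically.

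Later times were also compared with 0 h in P. davidiana, with the same 0 h libraries. At 96 h 6 members were higher and 0 lower in limma, against 12% and 9.06% of all genes, with a median difference of 0.54 in the members and 0.080 over all genes. At 120 h 7 were higher and 0 lower, against 17.1% and 10.3%, with medians of 0.54 and 0.14. Altogether 8 members were higher than at 0 h at some time. Of these, 4 were higher at 48, 96 and 120 h, namely Potri.008G019000, Potri.011G167200, Potri.011G110300 and MSTRG.37395. Potri.001G178300 was called at 48 h alone, 2 were called at 96 and 120 h but not at 48 h, and 1 at 120 h alone. The share of all genes with each of these patterns over several times was not determined, so these counts are a description only. A member called at one time and not at another was not tested for a difference between those times, apart from 48 h against 120 h.

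At 96 h, a time the rule did not use, 19 of the 28 members had a lower mean log2(FPKM + 1) in P. davidiana. The other 9 were higher than in P. yunnanensis, against 36.5% of the 24643 genes. All 9 had at least 1 FPKM in 3 or more P. davidiana libraries. The rule required expression in P. yunnanensis at 48 h and set no level in P. davidiana. This by itself favours lower levels in P. davidiana, so the counts here, called genes included, are a description only. The median difference was -0.96 in the members and -0.34 over these genes, so lower levels in P. davidiana were common among all genes. A limma fit of 15 libraries, the 12 of P. davidiana and the 3 of P. yunnanensis at 96 h, tested 25 members among 22900 genes. It called 2 members higher and 10 lower in P. davidiana, against 16.6% and 33.4% of all genes. However, 5 of the 25 members passed the filter on low values only with the 3 P. yunnanensis libraries, so their direction was fixed by the filter, and these 5 were all among the 10 lower. The same was true of 2226 of the 22900 genes, of which 1966 were called lower and 0 higher. Of the other 20 members, which passed in the P. davidiana libraries alone, 2 were higher and 5 lower, against 18.4% and 27.5% of the 20674 genes that did so. The relative depth of the P. davidiana libraries, 0.622 to 0.832 of that of P. yunnanensis 96 h replicate 1, was also lower than the 0.832 to 1.11 of the P. yunnanensis libraries, and its part in these differences was not tested. The same gene identifiers served both species. Whether fragments of each species were assigned to them equally well was not tested, and the species differences cannot be told apart from this.

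Differences are given as P. davidiana minus P. yunnanensis on the log2(FPKM + 1) scale. Potri.015G128300, at 845 to 1159 FPKM at 96 h in P. yunnanensis, was at 4.87, 1.70 and 4.47 FPKM in P. davidiana, a difference of -7.81 (SE 0.38, limma adjusted p = 1.54e-09). Potri.019G106000 was at 31.1, 44.5 and 25.3 FPKM at 96 h in P. yunnanensis and at 0, 0 and 0.060 in P. davidiana. It was one of the 5 that passed only with the P. yunnanensis libraries, so no test is given for it. Its highest value in any P. davidiana library was this 0.060 FPKM. The 2 members that were higher in P. davidiana were Potri.001G044300 and Potri.008G019000. Potri.001G044300 was at 98.0, 56.4 and 79.6 FPKM in P. davidiana at 96 h, above its values of 12.1, 12.1 and 6.84 in P. yunnanensis (difference 2.80, SE 0.34, limma adjusted p = 1.41e-05). For Potri.008G019000 the difference was 1.20 (SE 0.41, limma adjusted p = 0.0269). That call ended under 6 of 15 alternatives, with adjusted p from 0.00152 to 0.129, among them the fits without P. yunnanensis 96 h replicate 1 (adjusted p = 0.129) or 3 (0.0937), or without P. davidiana 96 h replicate 1 (0.0632) or 2 (0.0964).

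By their identifiers, which carry a chromosome number, the members lay on 15 chromosomes, apart from the assembled locus. Chromosome 19 held 5 of the 28 (17.9%), while it held 2.82% of the 24643 genes. Of these 5, Potri.019G106000 and Potri.019G107601 were 18 entries apart in the order of listed identifiers, and Potri.019G116932 and Potri.019G117200 were 3 apart. Neither gene of the first pair exceeded 0.310 FPKM in any P. davidiana library. Genes so close may be related in sequence and share fragments in the authors' counting, which was not tested. No other pair of members lay within 20 entries of each other. These positions are a description of a list selected on its values, with no test.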

How the data were processed

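The authors deposited 1 table of FPKM values for 43836 gene identifiers in 24 libraries, per the file headers. The aligner, the counter and the build were not given in the sources used here. Titles and library names in the labels put each column in its group. The 28 genes, the tests and all lists were chosen with earlier results of these data known. No annotation was used, so gene lists, tissue markers and promoter motifs prepared by description were not analysed here. Genes are named by identifier (ending in .v3.1 except the assembled locus), at most 2 per direction, rank or edge of each comparison, plus counts of 5 or fewer and cases said to be chosen after their values were seen.

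Tests used limma 3.58.1 in R 4.3.3 on log2(FPKM + 1), with 1 mean per group, a variance trend and Benjamini-Hochberg adjustment over all genes with 1 FPKM or more in at least 3 fitted libraries (20674 genes and 8 residual degrees of freedom in P. davidiana, 22900 genes and 10 for the species difference). The log2(FPKM + 1) scale understates changes of low genes. The fit was checked on simulated data. Same-numbered replicates were compared by the correlation of their deviations from group means. For P. davidiana 48 h and 0 h all 3 were above 0.1 (0.305, 0.291 and 0.259), so their numbers were taken to pair them, from the data and not from a label.

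Absolute depth is unknown. Relative depth, from ratios of values of 0.03 to 0.3 FPKM between libraries, was 0.622 to 1.11, and 17700 to 22450 genes reached 1 FPKM per library. Tables and figures were made with Python 3.11.15, numpy 2.4.6, pandas 2.3.3 and matplotlib 3.10.9. Alternatives were a pseudocount of 0.1, other filters and scalings, other sets of fitted libraries, each library left out in turn and the replicate number as a block.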

Additional observations from a re-analysis of the deposited data

How the results depend on the processing

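How many genes met the rule depended on the processing. Against 28, it was 45 with a pseudocount of 0.1 (23 shared with the 28), 57 under median ratio scaling (24 shared), 44 under quantile normalization (24 shared) and 7 with a difference of 1.5. It was 26 to 71 with 1 library left out, where the no-overlap condition is easier to meet. The gene shared with the P. davidiana rule became 2 genes under median ratio scaling and 1 to 2 with a library left out. Of the members called in P. davidiana at 48 h against 0 h (5), 3 were called with only the 6 compared libraries and 3 to 6 with 1 left out (3 without 0 h replicate 2 or 3). At 48 h against 120 h the 2 calls became 1 with a pseudocount of 0.1, without the filter or with all 24 libraries, and 1 to 4 with 1 left out (1 without 48 h replicate 2, 120 h replicate 2 or 3, and 4 without 48 h replicate 3). The 6 calls at 96 h against 0 h became 5 to 7, the 7 at 120 h 6 to 7, and the 12 of the species difference 11 to 14 with 1 left out, counts that include genes whose direction the filter fixed. In the 48 h comparisons the calls over all genes moved too, so such changes were not shown to be particular to the members. The cause was not tested.

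With the replicate block, 10 members were called at 48 h against 0 h, 4 at 48 h against 120 h, 10 at 96 h against 0 h, 9 at 120 h against 0 h and 15 for the species difference. In each of these comparisons the block also raised the calls over all genes, higher and lower. At 48 h against 0 h, 6.38% of all genes were higher and 5.58% lower with the block, against 3.51% and 3.2% without it. The added calls were therefore not shown to be particular to the members. Outside 48 h against 0 h the replicate numbers paired the libraries in part or not at all. The same-number correlations were 0.216, 0.304 and -0.041 for 48 h against 120 h, and 0.199, 0.297 and -0.039 for 96 h. They were 0.097, 0.183 and -0.014 for 120 h, and -0.195, -0.032 and -0.024 between species. In each of these comparisons within P. davidiana, 2 of 3 libraries correlated best with their own number, and between species 0 did. Every library of 48 h correlated best with its own number at 0 h, in 3 of 3 cases, a hint from the data and not from the design. Of values of single genes under the alternatives run, 810 kept direction and side of the threshold, 26 passed it only there and 30 lost the call. The sign turned in 9 values of 3 results, none of them past the threshold in either fit: in P. davidiana, 48 h against 120 h for Potri.005G176200 (0.58, lowest -0.37) and Potri.008G019000 (0.13, lowest -0.081), and 120 h against 0 h for Potri.015G128300 (0.033, lowest -0.18).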
